A study of Mus musculus with 8 samples.

Results

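The 10 genes examined here, Nxph4, Shmt2, Ndufa4l2, Stac3, R3hdm2, Stat6, Nab2, Myo1a, Gli1 and Inhbe, lie beside Lrp1 on mouse chromosome 10. They were taken by gene symbol from a table of 22520 protein-coding genes, and each symbol matched 1 row. The table came from mRNA-seq of cells from the livers of mice in which Lrp1 was deleted from endothelial cells (LRP1 eKO, LRP1 f/f; Cdh5-CreER+/-) and of littermate controls (WT, LRP1 f/f; Cdh5-CreER-/-), with 4 libraries per genotype. The labels give strain C57BL/6 and postnatal day 14 for all 8 libraries, and name the cells liver microvesicular cells. In the study's methods, microvascular ECs were selected with PECAM-1 antibody on magnetic beads. The Cdh5 promoter, active in endothelial cells, drove an inducible Cre recombinase (CreER) in LRP1 eKO mice only, so carriage of CreER and loss of Lrp1 cannot be told apart. Both genotypes were homozygous for the floxed Lrp1 allele, from a line of mixed B6 and 129S7 origin, so the comparison did not set a floxed against an unfloxed chromosome. The labels do not state whether each library came from a separate animal, and the p-values measure only the spread between these libraries, which may be technical.

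LRP1 is a large endocytic receptor of the LDL receptor family. When a gene is deleted, nearby genes can change because a regulatory element or the end of a transcript is changed with it (cis effects). They can also differ because a linked stretch of another strain's chromosome came with the allele (passenger effects). Neighbors on the chromosome are read as a check for such effects. Here both genotypes were homozygous for the floxed allele. A linked stretch that both carry cannot show as a difference between them, so the comparison is no check for it. The neighbors of Lrp1 have unrelated functions, among them a cytokine-activated transcription factor (Stat6), a transcriptional co-repressor (Nab2), a mitochondrial folate enzyme (Shmt2) and an effector of Hedgehog signaling (Gli1). Each neighbor was therefore set beside other genes of its own pathway as well as beside the genes around Lrp1.

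On GRCm38 (mm10), the build named in the labels, Lrp1 spans chr10:127538161-127621148 on the minus strand in the GENCODE M21 annotation. Downstream of its 3′ end, in order of distance, lie Nxph4 (minus strand, 3.60 kb away), Shmt2 (minus, 15.7 kb), Ndufa4l2 (plus, 21.0 kb), Stac3 (plus, 29.3 kb), R3hdm2 (plus, 38.8 kb), Inhbe (minus, 184 kb) and Gli1 (minus, 196 kb). Beyond its 5′ end lie Stat6 (plus, 21.8 kb), Nab2 (minus, 39.8 kb) and Myo1a (plus, 84.0 kb). Nxph4 is thus the gene that follows Lrp1 on the same strand, and Stat6 is transcribed away from the Lrp1 promoter. Stat6 and Nab2 share 40 exonic bases at their 3′ ends, and Shmt2 and Ndufa4l2 share 32. Nab2 also overlaps Nemp1 (listed as Tmem194 in the table) by 151 exonic bases and the antisense transcript Gm16229 by 1050, which is 35.7% of its exonic bases. Whether reads were counted by strand is not given in the sources used here, so reads of these overlapping genes may not have been separated.

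The promoters of Lrp1, of Stat6, the nearest gene on its 5′ side, and of Nab2, the next neighbor on that side, are shown. They let the sequence on the 5′ side of the deleted gene be read directly. Each is RefSeq sequence on GRCm38.p6, 250 bases before to 50 after the RefSeq start of the gene, written 5′ to 3′ on the strand of the gene, with matches to the GC box GGGCGG on either strand in capitals. The RefSeq starts of Lrp1 and Stat6 are those of the GENCODE genes above, whereas the RefSeq start of Nab2 lies 1865 bases inside the longer GENCODE gene, so its window does not flank the GENCODE start.
Lrp1, chr10:127621099-127621398, minus strand: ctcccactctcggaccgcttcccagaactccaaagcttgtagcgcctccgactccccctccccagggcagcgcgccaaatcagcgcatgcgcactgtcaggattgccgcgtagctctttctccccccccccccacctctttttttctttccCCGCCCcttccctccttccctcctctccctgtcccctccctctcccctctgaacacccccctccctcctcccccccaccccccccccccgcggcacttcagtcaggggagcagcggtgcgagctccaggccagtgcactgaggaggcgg
Stat6, chr10:127642736-127643035, plus strand: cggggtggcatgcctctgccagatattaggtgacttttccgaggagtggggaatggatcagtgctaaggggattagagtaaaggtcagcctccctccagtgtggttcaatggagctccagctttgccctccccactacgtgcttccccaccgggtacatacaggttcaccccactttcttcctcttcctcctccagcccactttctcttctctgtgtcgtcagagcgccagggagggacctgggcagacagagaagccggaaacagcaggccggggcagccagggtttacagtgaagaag
Nab2, chr10:127666654-127666953, minus strand: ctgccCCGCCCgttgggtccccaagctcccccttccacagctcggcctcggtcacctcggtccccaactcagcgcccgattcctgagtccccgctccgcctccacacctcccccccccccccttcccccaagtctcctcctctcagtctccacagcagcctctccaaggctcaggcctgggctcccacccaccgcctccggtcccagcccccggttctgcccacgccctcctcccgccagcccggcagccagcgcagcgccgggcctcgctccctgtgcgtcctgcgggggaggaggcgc
The GC box occurred in 35.7% of 32851 mouse promoters of this length, once each in those of Lrp1 and Nab2 and not in that of Stat6. Promoters of 6 of the 10 neighbors were matched (7 sequences, with starts from 0 to 40.5 kb inside the GENCODE gene), and 2 of these 7 held a GC box, those of Nab2 and R3hdm2. GCGNGGGCG, the letters bound by EGR factors, the partners of NAB2, occurred in 5.55% of all promoters and in 1 of the 7, that of R3hdm2. CCAAT, searched likewise on both strands, occurred in 37.4% of all promoters and in 1 of the 7, that of Inhbe. The Lrp1 and Nab2 windows were 67.7% and 74.0% G and C, against 57.3% for Stat6 and a median of 52.7% over all promoters.

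Values are the quantile-normalized signals of the table, and fold changes are differences of log2(signal + 1) between LRP1 eKO and WT. This scale shrinks the differences of weakly detected genes, and signals are not compared between genes, since no length scaling is stated. Sequencing depth is unknown, as normalization brought all libraries to signal sums between 484445 and 485947. WT replicate 4 and LRP1 eKO replicate 2 stood apart. Within its group, WT replicate 4 was the library farthest from the group median for 61.7% of tested genes, and LRP1 eKO replicate 2 for 37.2%. The cell type label was checked against markers. All 10 pan-endothelial markers were above 0 in a library, but Pecam1 was at 2.09 ± 0.416 (SD, n = 4) in WT against 3.02 ± 0.911 (SD, n = 4) in LRP1 eKO, and the 10 together summed to 49.1 to 51.7 in WT and 58.1 to 81.8 in LRP1 eKO libraries. The 4 mesothelial markers summed to 1442 to 1821 and 1874 to 2085, the 10 fibroblast and stellate markers to 1966 to 2285 and 1742 to 2195, and the 6 smooth muscle markers to 1611 to 1654 and 1935 to 2024. The libraries thus held RNA of markers of cells other than endothelial cells, and the results below describe the whole preparation. In such bulk samples, fewer cells of a type and less RNA per cell cannot be told apart.

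Lrp1 itself was examined first. Its signal was 61.6, 59.0, 56.2 and 85.1 in WT replicates 1 to 4, and 6.01, 2.16, 5.15 and 4.32 in LRP1 eKO replicates 1 to 4. Every LRP1 eKO library was below every WT library, and the LRP1 eKO mean was 6.74% of the WT mean (log2 fold change -3.66, standard error 0.23, limma adjusted p = 2.8e-06). The exact two-sided permutation p was 0.029, the smallest that 4 libraries against 4 allow. Which cells of the mixed preparation gave the Lrp1 signal in either genotype was not tested.

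Of the 10 neighbors, 5 passed the filter on low values (4 or more libraries with a signal of 1 or above). None of these 5 had a change of the order of that of Lrp1. Of the 5, 0 passed an adjusted p under 0.05 together with a 2-fold change, against 1.66% of all 11391 genes tested. At an adjusted p under 0.05 alone, 1 of the 5 passed, Nab2, which was lower in LRP1 eKO. The background for this count was 41.2% of tested genes, with 19.0% higher and 22.2% lower in LRP1 eKO. None of the 5 had groups without overlap, against 42.6% of tested genes. The 95% confidence intervals of the 5 all lay within a 2-fold change in either direction, the widest being that of Ndufa4l2, from -0.58 to 0.23. Of the other 5 neighbors, Nxph4, Stac3, Myo1a and Gli1 were below the filter, and Inhbe was listed at 0 in all 8 libraries. The highest WT mean of these 5 was 0.716 (Nxph4). On the log2(signal + 1) scale, even a full loss of any of them could not reach the size of the Lrp1 change. For Nxph4, Stac3, Myo1a and Gli1 the values come from the same model fitted without the filter to 17959 genes. Of these genes, 27.3% passed an adjusted p under 0.05 and 32.0% had groups without overlap. They include the 11391 genes that passed the filter, of which 42.6% had groups without overlap. The share without overlap among genes below the filter alone is therefore lower than 32.0%.

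**Figure D1:**
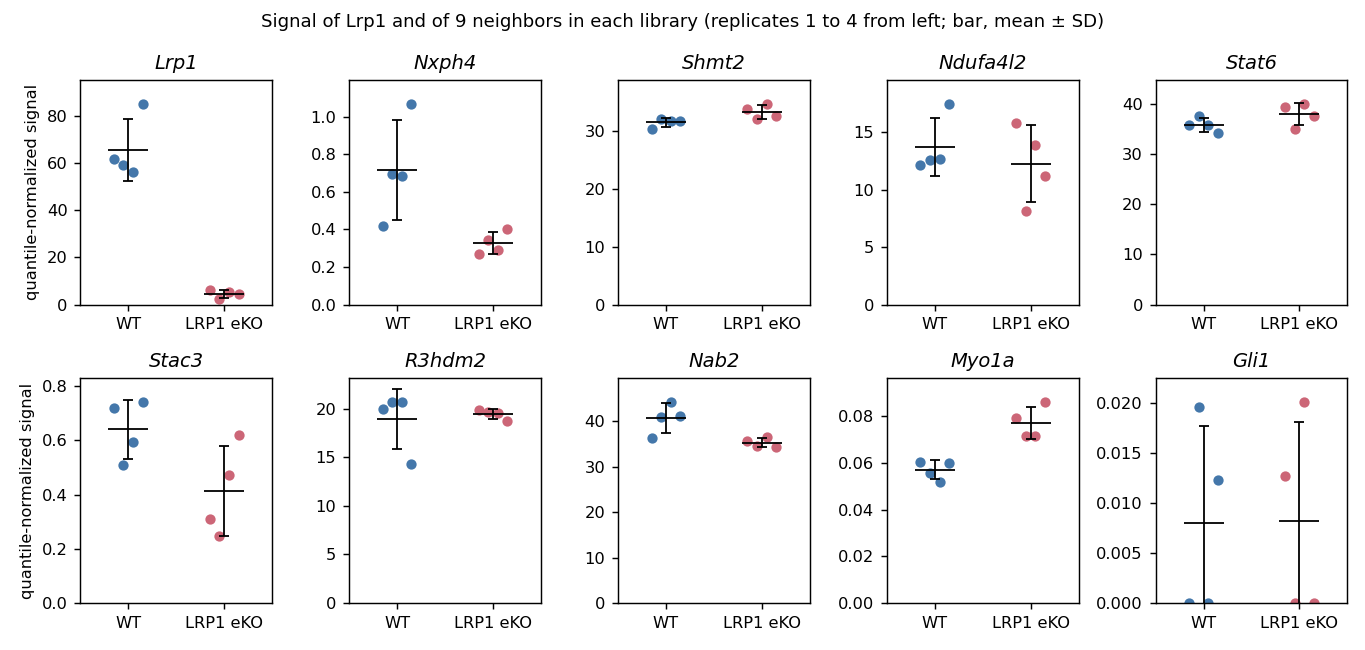
Quantile-normalized signal (linear axis from 0, a separate scale for each gene) of Lrp1 and of the 9 neighbors above 0 in at least 1 library. Each point is 1 library, WT in blue and LRP1 eKO in red, and the bars give mean ± SD of 4 libraries. Lrp1, Nxph4 and Myo1a have groups without overlap, and the WT and LRP1 eKO points of the other 7 genes overlap.

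Nxph4, the nearest gene downstream of Lrp1, encodes neurexophilin 4, a secreted glycoprotein of a family that binds neurexins. Its signals were 0.420, 0.694, 0.682 and 1.07 in WT replicates 1 to 4, and 0.271, 0.344, 0.291 and 0.403 in LRP1 eKO replicates 1 to 4. The highest LRP1 eKO library was just below the lowest WT library, so the groups did not overlap. The means were 0.716 ± 0.267 (SD, n = 4) and 0.327 ± 0.0591 (SD, n = 4), a ratio of 45.7%. On the log2(signal + 1) scale the difference was -0.36 (standard error 0.10, 95% confidence interval -0.59 to -0.12, limma adjusted p = 0.034 without the filter, exact permutation p = 0.029). This was the largest difference of the 9 neighbors that could be fitted, at a signal below the filter in 7 of 8 libraries. Its size on the log2 scale depended on the pseudocount, being -0.88 with 0.1 and -0.10 with 5, and it passed with both. Its call was lost in 6 of the 8 fits that each left out 1 library, those without WT replicate 2 or 3 or any 1 of the LRP1 eKO replicates, with adjusted p of 0.063 to 0.091 and log2 fold changes of -0.34 to -0.39. It was also lost without WT replicate 4 and LRP1 eKO replicate 2 together, at -0.27 with adjusted p = 0.060.

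Other genes of the neurexin family were mostly near 0. Of the 7 genes listed, 1 passed the filter, Nrxn2, a presynaptic receptor, and it fell from 2.56 ± 0.616 (SD, n = 4) to 1.14 ± 0.321 (SD, n = 4), a difference of -0.73 on the log2 scale (limma adjusted p = 0.0023). Nxph3, on another chromosome, was at 0.958 ± 0.201 (SD, n = 4) in WT against 0.598 ± 0.109 (SD, n = 4) in LRP1 eKO, also without overlap (log2 fold change -0.29, limma adjusted p = 0.033 without the filter). Nxph1 went the other way, also without overlap, from 0.197 ± 0.02005 (SD, n = 4) in WT to 0.296 ± 0.0771 (SD, n = 4) in LRP1 eKO, but did not pass (log2 fold change 0.11, limma adjusted p = 0.072 without the filter). Nxph2 was listed at 0 in every library.

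Shmt2 and Ndufa4l2 are the next pair downstream. Shmt2, the mitochondrial serine hydroxymethyltransferase that passes the carbon of serine to folate, was at 30.4, 32.2, 31.8 and 31.7 in WT replicates 1 to 4 and at 33.9, 32.1, 34.7 and 32.7 in LRP1 eKO replicates 1 to 4. The LRP1 eKO libraries were slightly higher, with 1 library inside the WT range. The log2 fold change was 0.08 (standard error 0.043, 95% confidence interval -0.02 to 0.18, limma adjusted p = 0.17), the narrowest interval of the 5 tested neighbors. Among the 20 tested genes of serine, glycine and one-carbon metabolism, 1 rose and 5 fell, with a median of 0.01. The 1 that rose was Mthfd2 (0.25, limma adjusted p = 0.021). Those that fell included Mthfd1, a cytosolic folate enzyme (-0.44, limma adjusted p = 3.3e-05), and Tyms, thymidylate synthase, which uses the one-carbon unit to make dTMP (-0.59, limma adjusted p = 0.0010).

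Ndufa4l2, a mitochondrial protein whose gene is a target of hypoxia-inducible factor, was at 12.1, 12.5, 12.7 and 17.4 in WT replicates 1 to 4 and at 15.8, 8.11, 13.9 and 11.2 in LRP1 eKO replicates 1 to 4. The groups overlapped widely, and the outermost values were those of the libraries that stood apart, WT replicate 4 and LRP1 eKO replicate 2. The log2 fold change was -0.17, with a standard error of 0.18 (limma adjusted p = 0.47). It turned to 0.11 without those 2 libraries (limma adjusted p = 0.42). Around it, 16 of 18 tested genes of the hypoxia list passed the adjusted p (88.9%, against 41.2% of all tested genes). Of the 16, 10 were higher and 6 lower, and the median of the 18 was 0.24. The 2 genes with the smallest adjusted p, named next, were both among the 10. Vegfa, the endothelial growth factor, rose from 40.4 ± 3.86 (SD, n = 4) to 70.1 ± 4.37 (SD, n = 4), and Pgk1, a glycolytic enzyme, rose from 227 ± 7.43 (SD, n = 4) to 344 ± 5.09 (SD, n = 4). None of these genes passed 2-fold.

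R3hdm2, which encodes an R3H domain protein, was at 19.98, 20.7, 20.7 and 14.3 in WT replicates 1 to 4, so that WT replicate 4 was low, and at 19.9, 19.6, 19.6 and 18.7 in LRP1 eKO replicates 1 to 4. The log2 fold change was 0.05 (standard error 0.10, 95% confidence interval -0.18 to 0.29, limma adjusted p = 0.70). Its sign rested on 1 library, being -0.068 without WT replicate 4 (limma adjusted p = 0.18). Of the 4 tested R3H genes, only R3hdm1 passed the adjusted p (0.21, limma adjusted p = 0.035), and R3hcc1 did not (-0.03, limma adjusted p = 0.83).

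Stac3, a protein that couples the muscle calcium channel to calcium release in skeletal muscle, was at 0.719, 0.510, 0.592 and 0.741 in WT replicates 1 to 4 and at 0.311, 0.247, 0.470 and 0.619 in LRP1 eKO replicates 1 to 4. LRP1 eKO replicates 1 to 3 were below every WT library, and LRP1 eKO replicate 4 lay within the WT range. The LRP1 eKO mean was 64.3% of the WT mean (log2 fold change -0.22, standard error 0.087, 95% confidence interval -0.42 to -0.02, limma adjusted p = 0.096 without the filter, exact permutation p = 0.086). The difference was -0.58 with a pseudocount of 0.1 and -0.060 with 5, and passed with neither. Without LRP1 eKO replicate 4 it passed, at -0.29 with adjusted p = 0.037. Of the 16 genes of the excitation-contraction coupling list, 7 passed the filter, of which 2 rose and 3 fell. The log2 fold changes of those past the filter ran from -1.97 to 0.37. Of the 9 below the filter, Stac3 among them, 7 passed the adjusted p in the fit without it, where 27.3% of all genes passed. All 7 were lower in LRP1 eKO, Cacna1s, Cacng1, Ryr1, Casq1, Trdn, Jsrp1 and Stac. Atp2a1, the calcium pump of fast muscle fibers, fell from 6.18 ± 1.30 (SD, n = 4) to 0.820 ± 0.154 (SD, n = 4), a difference of -1.97 on the log2 scale (limma adjusted p = 3.5e-06). Skeletal muscle markers moved with it. They summed to 44.5 to 68.6 in WT and 14.0 to 15.5 in LRP1 eKO libraries, WT replicate 4 being highest, and all 6 tested markers of 9 in the table fell. Of the list, Myl1 and Actn3 were at 13.7 ± 4.27 and 15.05 ± 1.78 in WT and 1.90 ± 0.190 and 8.09 ± 0.401 in LRP1 eKO (SD, n = 4), and no muscle marker was at 0 in all libraries. The part of muscle RNA in the Stac3 and Nxph4 differences was not tested.

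**Figure D2:**
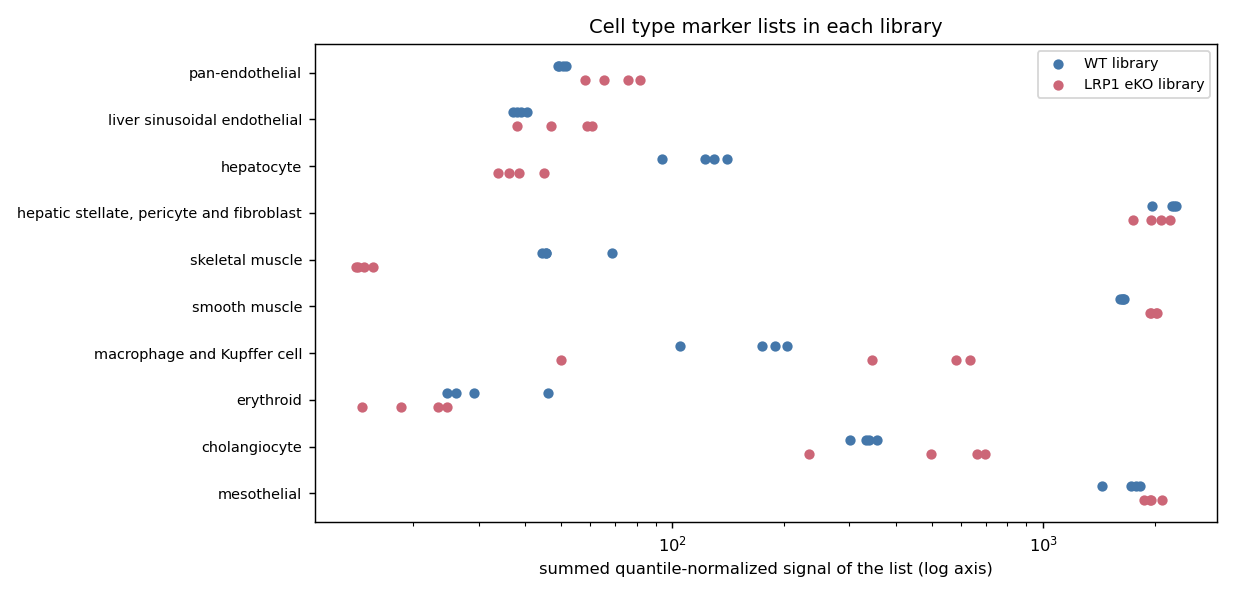
Summed quantile-normalized signal of each cell type marker list (log axis) in the 4 WT (blue) and 4 LRP1 eKO (red) libraries, the lymphocyte list, near 0, not being drawn. The skeletal muscle and hepatocyte sums are lower in every LRP1 eKO library than in any WT library, and the macrophage sum of LRP1 eKO replicate 2 (50.1) lies far below those of the other LRP1 eKO libraries.

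On the 5′ side, Stat6, the transcription factor activated by IL-4 and IL-13, was at 35.9, 37.6, 35.8 and 34.2 in WT replicates 1 to 4 and at 39.4, 35.0, 40.1 and 37.7 in LRP1 eKO replicates 1 to 4. The LRP1 eKO libraries were above the WT range in 3 of 4 cases, and LRP1 eKO replicate 2 lay within it. The log2 fold change was 0.08 (standard error 0.053, 95% confidence interval -0.04 to 0.20, limma adjusted p = 0.24). Of the 10 tested genes of IL-4 and IL-13 signaling, 2 rose and 0 fell, with a median of 0.10, and of 8 below the filter 1, Ccl24, was lower in the fit without it. The 2 that rose were the Janus kinases Jak1 (0.37, limma adjusted p = 8.7e-04) and Jak2 (0.22, limma adjusted p = 0.016). The cytokine Il13 was listed at 0 in every library and Il4 in 7 of 8. Arg1, an arginase that IL-4 induces in macrophages, was at 14.3, 14.6, 16.7 and 9.49 in WT replicates 1 to 4 and at 73.5, 3.317, 69.3 and 40.5 in LRP1 eKO replicates 1 to 4, and did not pass (log2 fold change 1.10, standard error 0.77, limma adjusted p = 0.27). LRP1 eKO replicate 2 was below all WT libraries and the other LRP1 eKO libraries were above them. The macrophage and Kupffer cell markers had the same order, with sums of 174, 190, 203 and 105 in WT replicates 1 to 4 and 636, 50.1, 583 and 344 in LRP1 eKO replicates 1 to 4, and their part in the Arg1 and Stat6 values was not tested.

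Nab2, a co-repressor that binds EGR transcription factors and whose gene EGR factors induce, was at 36.3, 41.0, 44.2 and 41.2 in WT replicates 1 to 4 and at 35.7, 34.5, 36.5 and 34.3 in LRP1 eKO replicates 1 to 4. Only WT replicate 1 reached into the LRP1 eKO range, where it lay below LRP1 eKO replicate 3. The means were 40.7 ± 3.30 (SD, n = 4) and 35.3 ± 1.03 (SD, n = 4), a ratio of 86.7%. The log2 fold change was -0.20 (standard error 0.060, 95% confidence interval -0.33 to -0.06, limma adjusted p = 0.025, exact permutation p = 0.057). Among all tested genes, 58.4% had a change of at most 0.2 in size. The call was lost in 5 of the 8 fits without 1 library, those lacking WT replicate 2, WT replicate 3, or one of LRP1 eKO replicates 1, 2 and 4, with adjusted p of 0.050 to 0.067. It was also lost without WT replicate 4 and LRP1 eKO replicate 2 together, at -0.18 with adjusted p = 0.058. Its overlapping neighbor Nemp1 was at 2.51 ± 0.228 (SD, n = 4) in WT against 2.12 ± 0.189 (SD, n = 4) in LRP1 eKO (log2 fold change -0.17, limma adjusted p = 0.082).

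The EGR partners and the paralog of Nab2 that could be tested did not fall. Of 4 tested genes of the EGR and NAB list, 2 rose, Egr2, an EGR transcription factor, from 2.05 ± 0.122 to 2.83 ± 0.105 (SD, n = 4; log2 fold change 0.33, limma adjusted p = 0.0017) and Nab1, the paralogous co-repressor, from 17.2 ± 2.07 to 22.3 ± 1.74 (SD, n = 4; log2 fold change 0.36, limma adjusted p = 0.0086). Only Nab2 fell.

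Myo1a, a class I myosin of the intestinal brush border, was listed at 0.0604, 0.0559, 0.0520 and 0.0601 in WT replicates 1 to 4 and at 0.0792, 0.0716, 0.0716 and 0.0861 in LRP1 eKO replicates 1 to 4. All LRP1 eKO libraries were above all WT libraries, at signals close to 0. The means were 0.0571 ± 0.00398 (SD, n = 4) and 0.0771 ± 0.00698 (SD, n = 4), and the log2 fold change of 0.027 did not pass (limma adjusted p = 0.066 without the filter, exact permutation p = 0.029). With array weights, which give less weight to libraries that deviate, it passed at 0.028 with limma adjusted p = 0.041. Of the 6 tested class I myosins, 4 rose and 0 fell, with a median of 0.42. They included Myo1c, a widely expressed motor, which rose from 128 ± 14.9 (SD, n = 4) to 195 ± 16.7 (SD, n = 4), and Myo1d, from 26.2 ± 2.22 (SD, n = 4) to 33.8 ± 1.53 (SD, n = 4).

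Gli1, the transcription factor that is itself a target of Hedgehog signaling, was listed at 0 in 4 libraries and at no more than 0.0201 in the others, 2 of each genotype, and no difference was detectable at these signals (log2 fold change 0.0003, 95% confidence interval -0.025 to 0.026). Arhgap9, which overlaps Gli1 by 62 bases, was at 0.436 ± 0.149 (SD, n = 4) in WT against 1.05 ± 0.591 (SD, n = 4) in LRP1 eKO (log2 fold change 0.47, limma adjusted p = 0.16 without the filter). Of the 12 tested Hedgehog genes, 1 rose and 4 fell, with a median of -0.07. The largest decreases were those of 2 surface proteins that modulate Hedgehog binding, Gpc3 from 128 ± 5.15 to 68.9 ± 6.75 (SD, n = 4; log2 fold change -0.89) and Gas1 from 120 ± 7.63 to 66.9 ± 9.18 (SD, n = 4; log2 fold change -0.84). Inhbe, the subunit of activin E and a gene mainly of hepatocytes, was listed at 0 in all 8 libraries, as was Inhbc. Hepatocyte markers summed to 93.4 to 141 in WT and 33.8 to 45.1 in LRP1 eKO libraries. In the activin list, 2 of 9 tested genes rose and 2 fell, and Inhba, the subunit of activin A, rose from 2.52 ± 0.612 (SD, n = 4) to 8.33 ± 0.385 (SD, n = 4), a difference of 1.42 on the log2 scale (limma adjusted p = 1.5e-05).

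**Figure D3:**
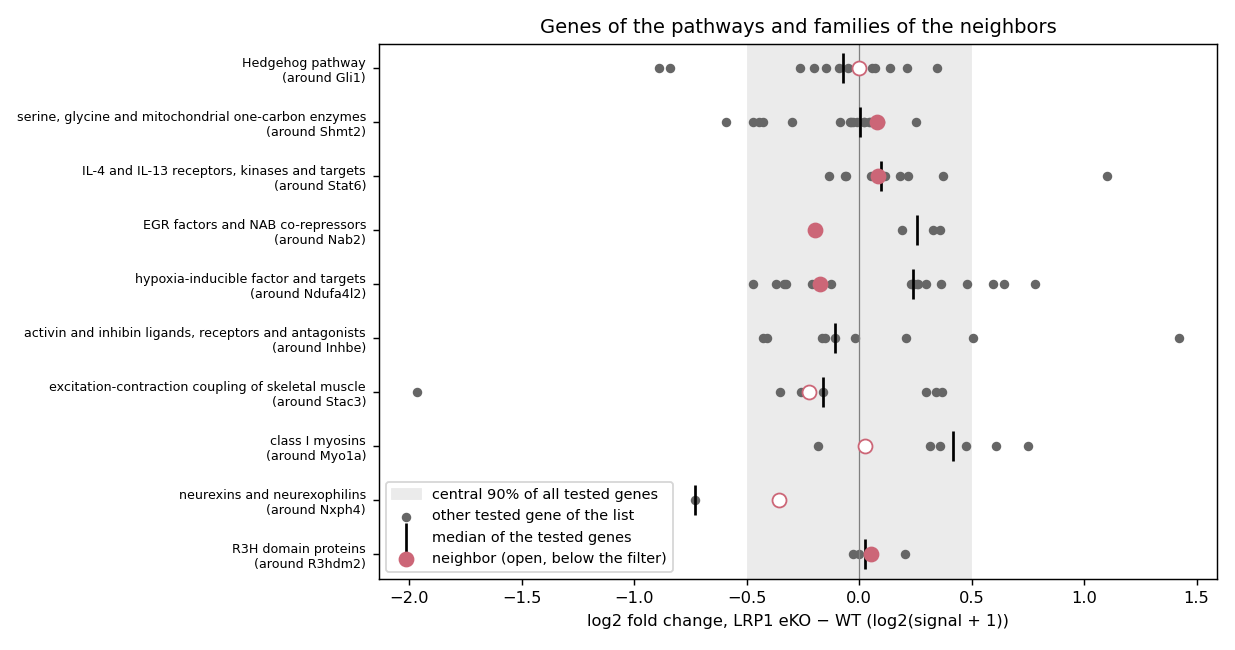
Log2 fold change (LRP1 eKO minus WT, log2(signal + 1)) of the tested genes of each neighbor's pathway or family. Grey points are tested list genes, black ticks list medians, red points neighbors (open where below the filter), and the shaded band, from -0.49 to 0.50, holds the central 90% of all tested genes. All neighbors drawn lie inside the band, and Atp2a1 (-1.97) and Inhba (1.42) lie farthest outside it. Gli1 and Myo1a, with signals close to 0, could not leave the band on this scale. The places of Nxph4 and Stac3 depend on the pseudocount, and Inhbe, at 0 in all libraries, is not drawn.

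Over all 10 lists together, each gene counted once, 47 of 91 tested genes passed the adjusted p, 25 higher and 22 lower, and 2 of them, Inhba and Atp2a1, passed 2-fold (4 without LRP1 eKO replicate 2). The 47 are 51.6%, against 41.2% of all tested genes.

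To see the neighbors within their stretch of the chromosome, every gene of the table within 1 Mb of either end of Lrp1 was taken from the annotation, 76 genes besides Lrp1. Of the 6 tested within 0.1 Mb, 1 passed the adjusted p (Nab2), and the log2 fold changes ran from -0.20 to 0.08. Of the 47 tested within 1 Mb, 21 passed (44.7%), 7 higher and 14 lower, and the median was -0.09, against -0.01 over all tested genes. On the rest of chromosome 10, 202 of 503 tested genes passed (40.2%), with a median of -0.04. Within 1 Mb, 7 of 20 genes passed on the 3′ side of Lrp1 and 14 of 27 on its 5′ side.

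The 4 genes of the window with the smallest adjusted p all lay farther from Lrp1 than any of the 10 neighbors. Most genes of the window are distant, however, 41 of the 47 tested lying more than 0.1 Mb from Lrp1. Stat2, a transcription factor of interferon signaling 649 kb away, was the only gene of the window past 2-fold (1 of 2 without LRP1 eKO replicate 3) and rose from 9.17 ± 0.198 (SD, n = 4) to 23.1 ± 0.912 (SD, n = 4), a difference of 1.25 on the log2 scale (limma adjusted p = 1.15e-07). Ddit3, which encodes the stress-induced factor CHOP, 242 kb away, rose from 36.4 ± 2.74 (SD, n = 4) to 71.3 ± 11.4 (SD, n = 4). Prim1, the DNA primase subunit, 394 kb away, fell from 6.67 ± 0.636 (SD, n = 4) to 3.74 ± 0.330 (SD, n = 4), and Cdk4, a cyclin-dependent kinase of the G1 phase, 470 kb away, fell from 416 ± 28.0 (SD, n = 4) to 299 ± 8.10 (SD, n = 4).

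**Figure D4:**
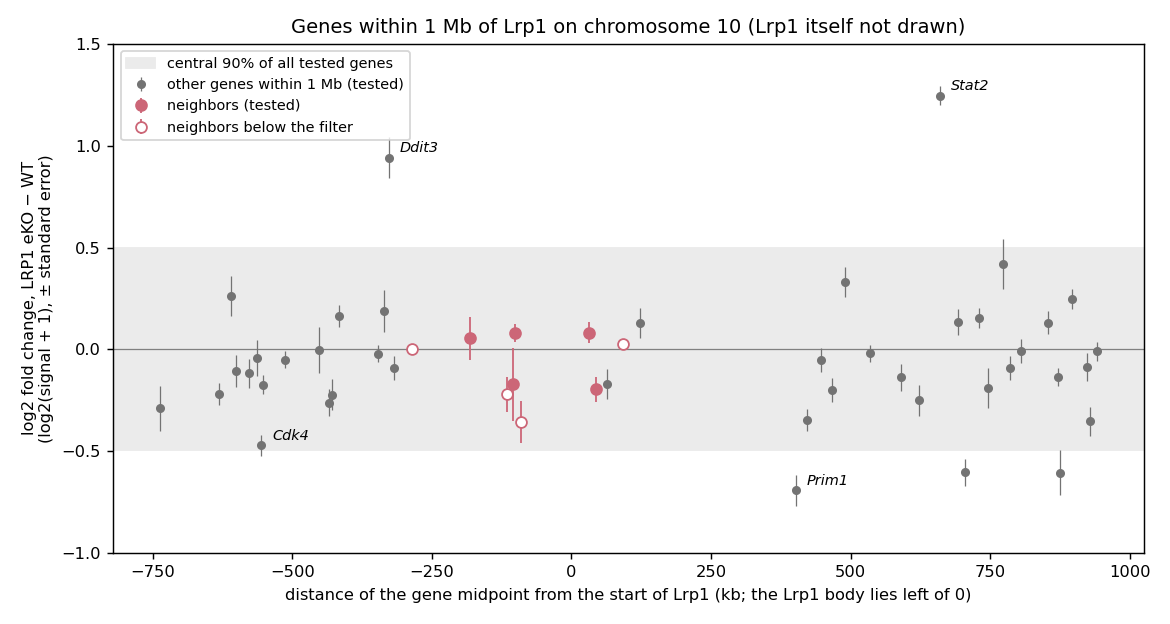
Log2 fold change with its standard error against the distance of each gene's midpoint from the start of Lrp1 (kb), for the tested genes within 1 Mb and the neighbors, with Lrp1 (-3.66) not drawn. Red points are neighbors (open where below the filter), grey points other genes, and the shaded band holds the central 90% of all tested genes. The neighbors lie within the band, while Stat2, Ddit3 and Prim1 are among the genes outside it.

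The neighbors differed in how far libraries of a genotype spread. For Shmt2 and Stat6 the SD was 2.53% and 3.87% of the mean in WT and 3.54% and 5.92% in LRP1 eKO, while for Ndufa4l2 it was 18.4% and 27.3%. WT replicate 4 was the highest or lowest WT library for 5 of the 9 neighbors above 0. LRP1 eKO replicate 2 was the highest or lowest LRP1 eKO library for 6 of them, including ties for Myo1a and Gli1. Such counts do not set these 2 libraries apart, since 2 of every 4 libraries are the highest and the lowest. With ties included, WT replicate 1 and LRP1 eKO replicate 4 were at an end of their groups at least as often. With genotype means removed, the 2 genes of all tested whose log2 signals followed each tested neighbor most closely over the 8 libraries were named as a description. These were Dock5 and Tnks2 for R3hdm2 (Pearson's r = 0.999 for both), Cyp2d22 (0.995) and Pla1a (0.994) for Ndufa4l2, Itga1 (0.991) and Aldh18a1 (0.982) for Stat6, Ppm1a (0.957) and Zfp189 (0.950) for Nab2, and Speg (0.955) and Hdc (0.952) for Shmt2. The points share libraries, among them the 2 that stood apart.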

How the data were processed

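The authors deposited 1 table of quantile-normalized signal per protein-coding gene for 4 WT and 4 LRP1 eKO libraries. The labels name TopHat2, Cufflinks and mm10, whereas the paper's methods describe STAR and featureCounts with GENCODE. The unit before normalization and the normalization tool are not given in the sources used here. Quantile normalization removes any shift common to all genes.

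Genotypes were compared on log2(signal + 1) with limma 3.58.1 in R 4.3.3 (genotype as the only term, mean-variance trend, two-sided, Benjamini-Hochberg over 11391 genes). A call needed an adjusted p under 0.05, with 2-fold as in the study's methods where stated. Exact permutation tests went through every split of the libraries into groups of 4, and confidence intervals used the t distribution of scipy 1.17.1. On simulated data for LRP1 eKO against WT with 11391 genes, a call needed both an adjusted p under 0.05 and 2-fold. It was met by 199 of 200 genes given a log2 change of 2 and by 0 of the 11191 left unchanged. The simulation bears neither on calls at the adjusted p alone nor on changes as small as those of the neighbors. Positions came from GENCODE M21, which held 21740 of the 22520 identifiers.

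The neighbors, gene lists and thresholds were chosen with earlier results of these data known. Named were all neighbors and Lrp1, genes of the window past 2-fold and the 3 further genes with the smallest adjusted p, genes overlapping a neighbor, up to 3 list genes past 2-fold or otherwise the 2 with the smallest adjusted p, and the most alike genes. Chil3, R3hcc1l, Acta1, Adgre1, Hbb-bt and Hbb-bs of the lists were not analysed here. Genes listed at 0 (Nxph2, Il13, Il4, Inhbc) and Pecam1, Arg1, Nxph1, Ccl24, Mthfd2 and the coupling genes below the filter were named after their values were seen. Other settings tried were a pseudocount of 0.1 or 5, dropping the filter or replacing it by a mean signal of 5, dropping the trend, array weights, robust moderation, trimmed-mean centring (30% off each end), a replicate block, a ratio of means, a 0.5 Mb window, and leaving out libraries. Figures were drawn with matplotlib 3.10.9.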

Additional observations from a re-analysis of the deposited data

Results flagged for a closer look

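Among 68 groups of 4 libraries of the named genes, 8 had 1 library far from the other 3, where chance gives about 1 in 20, or 3.4. The value given is the gap to the nearest library over the range of the group, set against Dixon's critical value at the 95% level. WT replicate 4 was the highest WT library for Ndufa4l2 (17.4 against 12.7 for the next, 0.899), Ddit3 (0.839), Cdk4 (0.846) and Nrxn2 (0.960), and the lowest for R3hdm2 (14.3 against 19.98 for the next, 0.889). LRP1 eKO replicate 2 was the highest LRP1 eKO library for Nab1 (0.856) and Myo1c (0.843), and LRP1 eKO replicate 3 for Vegfa (0.876).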

How the results depend on the processing

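Shmt2 (0.06 to 0.10) and Stat6 (0.06 to 0.12) were higher in LRP1 eKO and did not pass under any of 18 alternatives, while Nab2 was lower under all 18 (-0.25 to -0.16) and passed in 12. The count of tested neighbors at an adjusted p under 0.05, 1 in the report, was 2 with no filter (Nxph4 added), 0 to 1 when 1 library was left out, and 0 without WT 4 and LRP1 eKO 2 together, a choice made after seeing the data. Myo1a passed with array weights (0.028) and in no other setting. With pseudocounts of 0.1 and 5, Nxph4 was -0.88 and -0.10, Stac3 -0.58 and -0.060, and Myo1a 0.17 and 0.0057. Ndufa4l2 turned to 0.034 with array weights and 0.11 without those 2 libraries. R3hdm2 turned to -0.056 with array weights, -0.072 without those 2, and ran from -0.068 (without WT replicate 4) to 0.099 over fits without 1 library. Gli1 turned to -0.0031 with trimmed-mean centring and ran from -0.0054 to 0.0058 over fits without 1 library; the cause was not tested. Within 0.5 Mb of Lrp1, 11 genes passed instead of 21 within 1 Mb, as fewer genes were tested. The count past 2-fold within 1 Mb, 1, was 0 with a pseudocount of 5 and 1 to 2 without 1 library. That of the pathway lists, 2, was 0 with a pseudocount of 5, 1 with a minimum mean signal of 5, 2 to 4 without 1 library and 4 without those 2 libraries. Over all genes, 189 passed 2-fold, against 66 with a pseudocount of 5 and 315 with 0.1. With a replicate block, 4185 genes passed instead of 4690 and Nab2 stayed the only tested neighbor called. The deviations of same-numbered libraries had r = -0.09, -0.13, 0.18 and 0.04, within the range of differently numbered pairs (-0.26 to 0.21). These few correlations cannot exclude a pairing, so whether the numbers pair the libraries is not known.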
